A study of Mus musculus with 8 samples.

Results

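Notch signalling was read in 10 genes across skeletal progenitors of newborn mice: the receptor genes Notch1, Notch2, Notch3 and Notch4, the ligand genes Jag1, Jag2 and Dll1, the nuclear factor gene Rbpj, and the target genes Hes1 and Hey1. They were chosen by gene symbol, and each had 1 row in a table of 55471 gene entries, so all 10 members are described. All 10 passed the low-count filter that left 22153 genes for testing. RNA was sequenced in bulk from cells that had been sorted by fluorescence out of neonatal femurs, taken at day 3 to 5. The groups were Tet1 KO skeletal stem cells (KO SSC), WT skeletal stem cells (WT SSC), Tet1 KO bone cartilage stromal progenitors (KO BCSP) and WT bone cartilage stromal progenitors (WT BCSP). Each group held 2 libraries, titled round 1 and round 2. Tet1 encodes a dioxygenase that oxidises methylated cytosine in DNA. All animals, WT included, carry the strain name B6;129S4-Tet1tm1.1Jae/J. Reads were paired and 150 bases long. The labels do not say what a round is, how many animals a library pools, or whether libraries come from separate animals, so p-values measure only the spread between these samples, which may be technical.

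In Notch signalling a ligand on one cell (a Jagged or Delta protein) binds a receptor on its neighbour, and the receptor is then cut by an ADAM protease and by gamma-secretase. The freed intracellular domain enters the nucleus and joins RBPJ, the DNA-binding factor of the pathway, which otherwise holds its targets silent. Hes1 and Hey1, genes for basic helix-loop-helix repressors, are among the best known targets. In the mouse skeleton the pathway is known for keeping mesenchymal progenitors from differentiating and for governing chondrocyte maturation.

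Library totals ran from 104782544 to 168004119 counts, so that 1 CPM (a count per 1e6 counts, scaled by TMM factors here) stands for over 100 counts. The sort labels were checked on Eng, the gene of the surface protein endoglin, which had 25.7 to 50.5 CPM in BCSP and 2.53 to 3.89 CPM in SSC. Eng was 1 of 5 sort marker genes read, and the others, Itgav, Cd200, Thy1 and Enpep, overlapped between the cell types. Cd200 had 24.2 to 49.7 CPM in SSC and 28.6 to 67.2 CPM in BCSP. All 5 had a log2 fold change below 0 for SSC over BCSP, where 51.8% of all tested genes were above 0. Of the 5, 1 passed at an edgeR adjusted p under 0.05, against 0.00451% of tested genes. Col2a1, the main collagen gene of cartilage, alone took 24.7 to 30.6% of counts. Tet1 had 7.26 and 11.8 CPM in KO SSC against 15.6 and 19.6 CPM in WT SSC, and 10.8 and 11.97 CPM in KO BCSP against 21.6 and 10.98 CPM in WT BCSP. The library labelled WT BCSP round 2 thus lay within the KO range, although counts over a whole gene are a weak check where the deleted part is not given. The round 2 BCSP libraries also stood apart by transcript length. Across 12636 genes, the deviation of a library from the mean had a Spearman correlation with exon length of 0.357 in KO BCSP round 2 and -0.498 in WT BCSP round 2, against -0.244 to 0.225 in the other 6. The BCSP values of the members that led there are therefore given with and without these libraries.

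Per length of exon, Hes1 was by far the most abundant of the members, and Notch2 the most abundant receptor gene. CPM per kilobase of exon (CPM per kb) averaged 48.3 for Hes1, which lay above 97.6% of tested genes, and 7.64 for Notch2, above 84.9%. Rbpj followed at 2.98 CPM per kb and Notch1 at 2.58. Hey1 and Jag1 stood level at 1.40 and 1.39 CPM per kb. Notch3 averaged 0.674 and Dll1 0.491 CPM per kb, and Notch4 and Jag2 were lowest at 0.130 and 0.107. Over the 8 libraries, the ranges of neighbours in this order were separate after Hes1, after Notch2 and after Dll1, and overlapped elsewhere. Within a library, Rbpj exceeded Notch1 in 7 of 8, and Hes1, Notch2, Notch1, Jag1, Notch3 and Dll1 each exceeded the next gene in that order in all 8, while Hey1 exceeded Jag1 in 5 of 8. Rbpj varied least between libraries, with a highest level 1.40 times its lowest, and Dll1 most, at 3.51 times. Exon length here is the union of all annotated exons of a gene, such as 10.782 kb for Notch2, 12.750 kb for Rbpj and 14.232 kb for Notch1. Whether the order between genes holds for the lengths of the expressed transcripts was not tested.

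**Figure D1:**
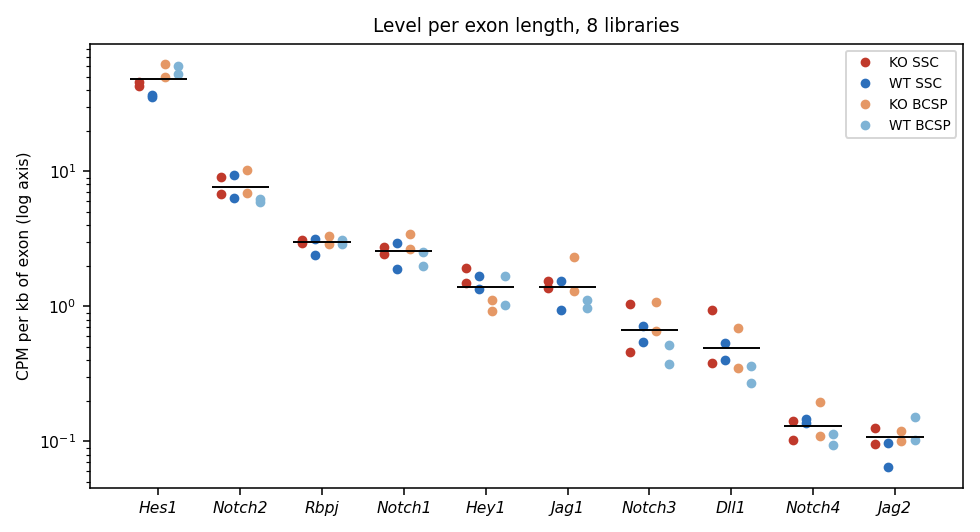
Level of each member in CPM per kilobase of exon (log axis) in the 8 libraries, coloured by group, with the mean over libraries as a line. Hes1 averages 48.3 and Jag2 0.107, and the points of Hes1 and of Notch2 lie clear of those of every lower gene.

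The receptor pool was mostly Notch2 in every library. Notch2 made up 65.3 to 71.8% of the summed receptor level per kb, and Notch1 and Notch2 together 90.9 to 94.4%. Jag1 made up 59.0 to 74.5% of the summed level of the 3 ligand genes. Summed receptor levels exceeded summed ligand levels 4.79 to 6.32 times. All of these shares and ratios rest on the same union exon lengths.

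Promoters were read for Rbpj, the factor that binds the pathway's targets, and for Jag1 and Notch3, the members furthest from 0 between genotypes in BCSP. Windows of 250 bases before each annotated start were available from RefSeq (GRCm38.p6) for 8 of the 10 members. They were searched on both strands for TGGGAA (reverse complement TTCCCA), the core of the RBPJ site; no other motif was searched. Of all 32851 windows, 21.6% held at least 1 match, and of the 8 members 1 did, Rbpj. The stretches before the annotated exons are given 5′ to 3′ on the strand of the gene, in lower case with a match in capitals. They lie at chr5:53590096-53590213 (plus strand) for Rbpj, chr2:137116645-137116770 (minus strand) for Jag1 and chr17:32166891-32167140 (minus strand) for Notch3.
Rbpj: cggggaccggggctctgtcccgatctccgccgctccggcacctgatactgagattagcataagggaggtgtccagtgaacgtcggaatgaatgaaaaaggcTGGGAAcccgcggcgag
Jag1: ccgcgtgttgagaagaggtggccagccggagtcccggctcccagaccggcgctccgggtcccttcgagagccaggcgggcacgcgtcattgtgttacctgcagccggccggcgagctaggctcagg
Notch3: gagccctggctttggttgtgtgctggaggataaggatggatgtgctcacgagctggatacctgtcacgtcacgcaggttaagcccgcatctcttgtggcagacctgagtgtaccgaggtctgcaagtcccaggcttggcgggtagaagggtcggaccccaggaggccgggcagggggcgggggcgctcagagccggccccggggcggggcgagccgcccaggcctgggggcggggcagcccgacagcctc
A match of these 6 letters describes the sequence only.

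Among the receptor genes, none passed the test between KO and WT in either cell type, but 3 of the 4 had higher values in both KO BCSP libraries than in both WT BCSP libraries, where 16.9% of all tested genes were higher without overlap. Notch2 (mm10 chr3:98013527-98150361, plus strand) had 73.5 and 97.8 CPM in KO SSC (rounds 1 and 2), against 68.6 and 101 CPM in WT SSC. It had 74.4 and 111 CPM in KO BCSP, against 67.8 and 64.1 CPM in WT BCSP. In SSC the genotypes overlapped and the higher value of each belonged to round 2, and in BCSP the KO libraries were higher. The log2 fold change of Notch2 was 0.01 ± 0.27 (SE) in SSC and 0.49 ± 0.27 in BCSP, with edgeR adjusted p of 1 and 0.686.

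Notch1 (chr2:26457903-26516663, minus strand) had 34.96 and 38.9 CPM in KO SSC against 26.9 and 41.9 CPM in WT SSC. In BCSP it had 37.9 and 48.9 CPM in KO against 28.1 and 36.2 CPM in WT. The KO libraries lay inside the WT range in SSC and above it in BCSP. Its log2 fold change was 0.10 ± 0.26 in SSC and 0.43 ± 0.26 in BCSP (edgeR adjusted p of 1 and 0.686).

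Notch3 (chr17:32120820-32166852, minus strand), the receptor gene best known from vascular smooth muscle and pericytes, showed the widest gap in BCSP. It had 5.27 and 8.68 CPM in KO BCSP against 3.03 and 4.23 CPM in WT BCSP, without overlap, and 3.75 and 8.46 CPM in KO SSC against 4.41 and 5.79 CPM in WT SSC, where the WT values lay between the KO ones. The log2 fold change was 0.94 ± 0.41 in BCSP, with an unadjusted p of 0.0394 and an edgeR adjusted p of 0.686, and 0.26 ± 0.41 in SSC. Notch4 (chr17:34564268-34588503, plus strand), a mainly endothelial receptor gene, was near 1 CPM throughout. It had 0.822 and 1.14 CPM in KO SSC against 1.10 and 1.19 CPM in WT SSC, and 1.58 and 0.886 CPM in KO BCSP against 0.909 and 0.753 CPM in WT BCSP. Both pairs overlapped, and the log2 fold change was -0.22 ± 0.53 in SSC and 0.57 ± 0.54 in BCSP.

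The ligand gene Jag1 (chr2:137081456-137116644, minus strand) was also higher in both KO BCSP libraries. It had 7.58 and 13.5 CPM in KO BCSP against 6.51 and 5.70 CPM in WT BCSP, and 7.93 and 8.98 CPM in KO SSC against 5.44 and 9.04 CPM in WT SSC. The genotypes were apart in BCSP, where KO round 2 was highest, and overlapped in SSC. The log2 fold change of Jag1 was 0.79 ± 0.34 in BCSP (unadjusted p = 0.0371, edgeR adjusted p = 0.686) and 0.22 ± 0.34 in SSC. Dll1 (chr17:15367354-15376872, minus strand) had 1.60 and 3.99 CPM in KO SSC against 1.69 and 2.25 CPM in WT SSC, and 1.48 and 2.92 CPM in KO BCSP against 1.14 and 1.52 CPM in WT BCSP. The genotypes overlapped, at log2 fold changes of 0.51 ± 0.51 in SSC and 0.73 ± 0.52 in BCSP. Jag2 (chr12:112907819-112929776, minus strand) had 0.668 and 0.872 CPM in KO SSC against 0.680 and 0.447 CPM in WT SSC, and 0.830 and 0.706 CPM in KO BCSP against 1.06 and 0.711 CPM in WT BCSP. The genotypes overlapped in both cell types.

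**Figure D2:**
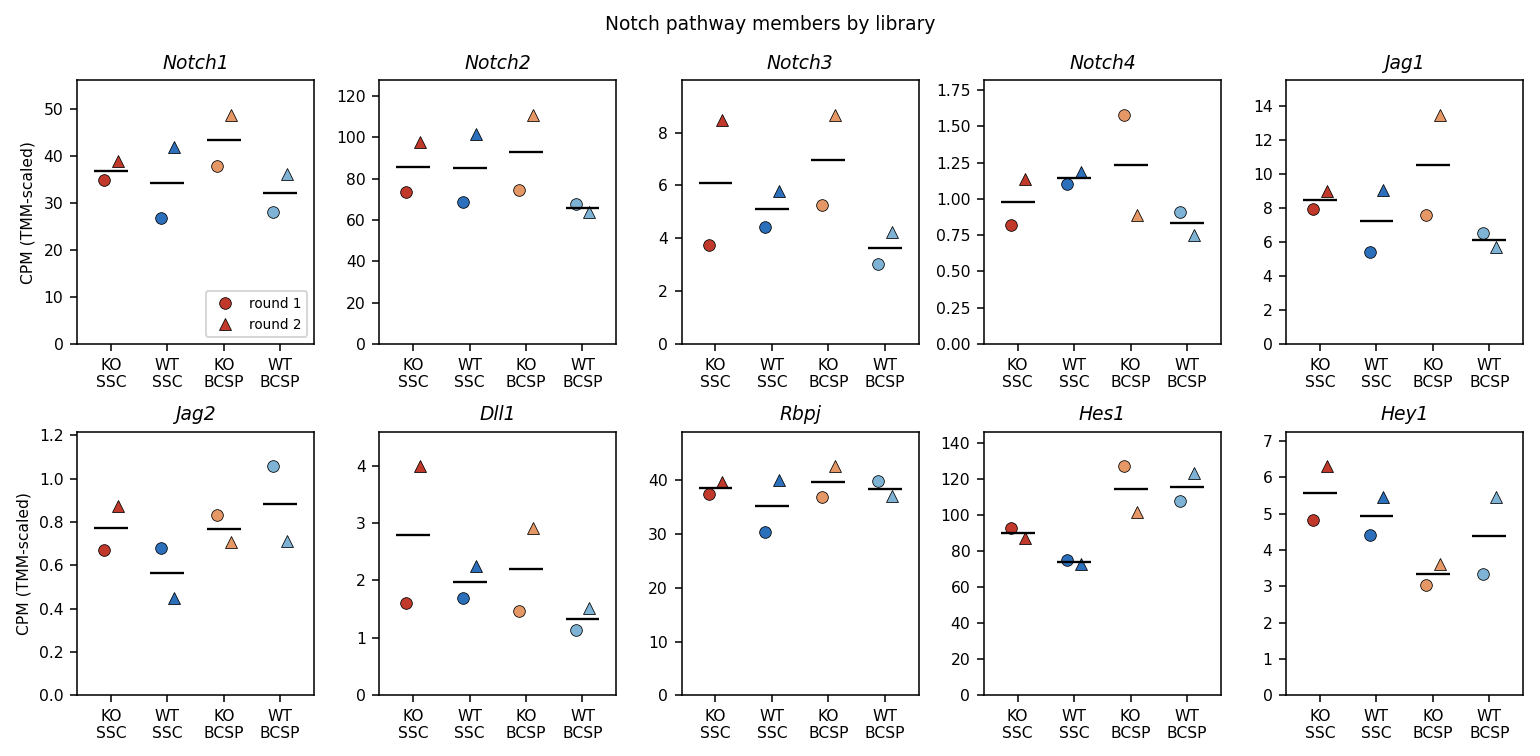
CPM of the 10 members in each library, 1 panel a gene, with circles for round 1, triangles for round 2 and a line at the group mean. In BCSP both KO points lie above both WT points for Notch1, Notch2, Notch3 and Jag1, and Hes1 is lower in all 4 SSC libraries (72.7 to 92.9 CPM) than in all 4 BCSP libraries (101 to 127 CPM).

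Rbpj (chr5:53466152-53657362, plus strand) varied least of the members. It had 37.3 and 39.6 CPM in KO SSC against 30.4 and 39.9 CPM in WT SSC, and 36.8 and 42.6 CPM in KO BCSP against 39.9 and 37.0 CPM in WT BCSP. The genotypes overlapped in both cell types, at log2 fold changes of 0.13 ± 0.22 in SSC and 0.05 ± 0.22 in BCSP.

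Neither target gene had a log2 fold change above 0 between KO and WT in BCSP, although Hes1 was at 0.28 once exon length was allowed for. Hes1 (chr16:30064384-30067796, plus strand) had 127 and 101 CPM in KO BCSP against 107 and 123 CPM in WT BCSP, a log2 fold change of -0.01 ± 0.22 (95% interval -0.49 to 0.47). In SSC it had 92.9 and 87.4 CPM in KO against 75.0 and 72.7 CPM in WT. Those 4 SSC values did not overlap, but the log2 fold change of 0.29 ± 0.22 did not pass (edgeR adjusted p = 1), and 14.5% of all tested genes were higher without overlap in KO SSC. With exon length allowed for, the SSC value of Hes1 was 0.36 ± 0.18. Over both cell types Hes1 was at 0.14 ± 0.15 (edgeR adjusted p = 0.807). With exon length allowed for, that joint value was 0.32 ± 0.11 (unadjusted p = 0.0139, edgeR adjusted p = 0.535). Hey1 (chr3:8663359-8667256, minus strand) had 4.84 and 6.31 CPM in KO SSC against 4.41 and 5.47 CPM in WT SSC, and 3.03 and 3.63 CPM in KO BCSP against 3.33 and 5.47 CPM in WT BCSP. Its log2 fold change was 0.17 ± 0.35 in SSC and -0.40 ± 0.35 in BCSP, with overlap in both.

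Counted together, no member passed between KO and WT at an edgeR adjusted p under 0.05, where 0.00451% of tested genes did in SSC and 0.00451% in BCSP. In BCSP, 7 of 10 members had a log2 fold change above 0, with a median of 0.46, where 50.5% of all tested genes were above 0 and their median was 0.01. Of the 10 members, 4, all of them receptor or ligand genes, were higher without overlap in KO BCSP, against 16.9% of tested genes. Of the 10, 2 had an unadjusted p under 0.05, against 6.19% of tested genes. In SSC, 9 of 10 members were above 0 with a median of 0.20, where 51.3% of tested genes were above 0, and none had an unadjusted p under 0.05, against 1.2% of tested genes.

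The BCSP values moved with the round 2 libraries. Without KO BCSP round 2 the log2 fold change of Notch3 was 0.54, that of Jag1 0.31, that of Notch1 0.24 and that of Notch2 0.18. Without WT BCSP round 2 the same values were 1.204 for Notch3, 0.70 for Jag1, 0.63 for Notch1 and 0.46 for Notch2, and without both they were 0.80, 0.22, 0.43 and 0.14, in the same order of genes. Transcript length moved with these libraries as well. The length trend alone put Notch1, the member with the longest exons (14.232 kb), at 0.25 in KO BCSP round 2 and at -0.39 in WT BCSP round 2 on the log2 scale. With an offset for exon length in the fit, the BCSP log2 fold change became 0.83 ± 0.40 for Notch3, 0.80 ± 0.32 for Jag1, 0.30 ± 0.22 for Notch2, 0.10 ± 0.25 for Notch1 and 0.28 ± 0.18 for Hes1, which was at 0.24 without both round 2 BCSP libraries. Under the offset Notch3 and Jag1 stayed near their values without it, while Notch1 was at 0.10 in place of 0.43.

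**Figure D3:**
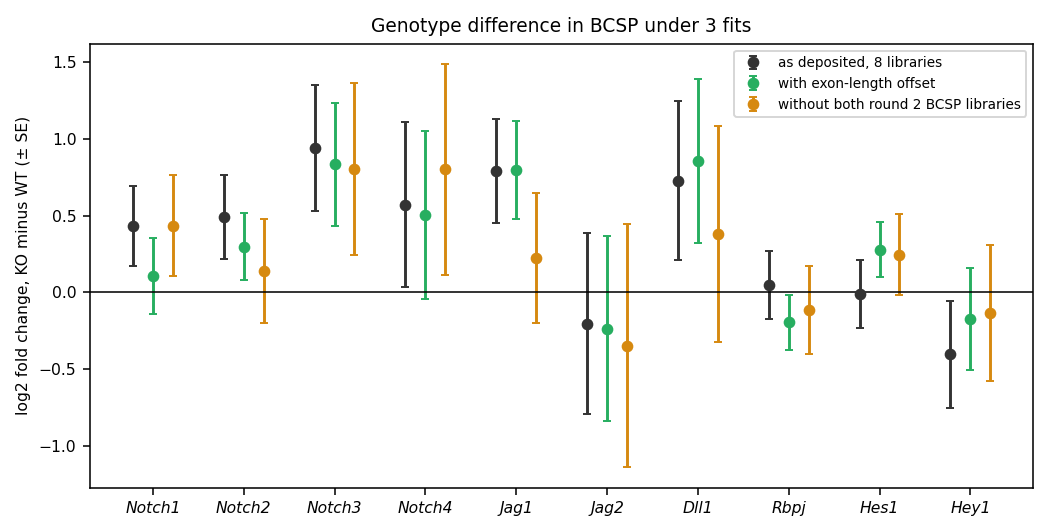
Log2 fold change of each member in BCSP (KO over WT, bars are SE) in the fit of all 8 libraries, in the same fit with an offset for exon length, and without both round 2 BCSP libraries. Notch3 stays between 0.80 and 0.94, whereas Jag1 is at 0.22 without the round 2 libraries and Notch1 at 0.10 with the length offset.

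Because Notch3 and Notch4 are known from vessels, vascular markers were read beside them. The summed CPM of 12 endothelial markers was 40.5 to 44.1 in KO BCSP and 24.9 to 31.6 in WT BCSP, with 8 to 11 of them detected in a BCSP library. Erg, which cartilage also expresses, gave most of this sum, and without it the sums were 3.03 to 5.30 in KO BCSP and 2.40 to 2.41 in WT BCSP. The defining markers were near 0: Pecam1 had 0.42 and 0.84 CPM in KO BCSP against 0.45 and 0.26 CPM in WT BCSP, and Cdh5 had 0.30 and 0.50 CPM in KO BCSP against 0.23 and 0 CPM in WT BCSP. Tie1, an endothelial receptor kinase gene, had 0.54 and 0.78 CPM in KO BCSP against 0 and 0.035 CPM in WT BCSP, without overlap. Cdh5, Tek, Kdr, Esam and Erg were also higher in KO BCSP without overlap, as were 16.9% of all tested genes. Robo4 was lower without overlap, at 0.072 and 0 CPM in KO BCSP against 0.122 and 0.132 CPM in WT BCSP. Pecam1, Flt1, Emcn, Egfl7 and Cldn5 overlapped. The 10 pericyte and smooth muscle markers, all detected in every library, summed to 962 to 1012 CPM in KO BCSP and 835 to 985 CPM in WT BCSP. Most of it was Cspg4, without which the sums were 49.8 to 65.3 CPM in KO BCSP and 44.2 to 49.2 CPM in WT BCSP. Tagln, Myh11, Kcnj8 and Abcc9 were higher in KO BCSP without overlap, as were 16.9% of all tested genes. Rgs5, Cspg4, Acta2, Mcam, Des and Cnn1 overlapped. Leaving out Erg and Cspg4 was decided after seeing the values. Between KO and WT in BCSP, 9 of the 11 tested endothelial markers were above 0 (median log2 fold change 0.83), as were 8 of the 10 pericyte and smooth muscle markers (median 0.49), where 50.5% of all tested genes were. Of 8 leukocyte markers 7 were above 0 (median 1.35), and of 6 erythroid markers 6 (median 0.41). None of these markers passed in BCSP, and the part of such cells in the Notch3, Notch4 and Jag1 values was not tested. In bulk RNA, more cells of a type and more RNA per cell cannot be told apart.

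Whether the genotype difference depended on the cell type was tested by the interaction. All 4 receptor genes were below 0 (KO effect in SSC minus that in BCSP), where 52.9% of all tested genes were above 0. They ran from -0.79 ± 0.76 for Notch4 to -0.33 ± 0.37 for Notch1, and Jag1 was at -0.56 ± 0.48. Over the alternative fits Notch1 ran from -0.61 to 0.01, and it was at -0.07 with the exon-length offset. No member passed, and neither did any tested gene (0%) in edgeR. DESeq2 also gave 0 genes. In edgeR, 282 genes had an unadjusted p under 0.05. Without both round 2 BCSP libraries the interaction of Jag1 was -0.002 and that of Notch2 -0.13, in place of -0.48. Notch1, Notch3 and Notch4 were then at -0.33, -0.54 and -1.02. Over both cell types together, the 4 KO libraries and the 4 WT libraries overlapped for every member, where 4.37% of tested genes did not overlap. The log2 fold changes were 0.51 ± 0.24 for Jag1, 0.60 ± 0.29 for Notch3 and 0.62 ± 0.34 for Dll1. Their edgeR adjusted p were 0.628, 0.632 and 0.651, where 0.0135% of tested genes passed. Without both round 2 BCSP libraries these log2 fold changes were 0.22, 0.44 and 0.47, in the same order of genes.

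The clearest split between cell types was in Hes1. It had 72.7 to 92.9 CPM in the 4 SSC libraries and 101 to 127 CPM in the 4 BCSP libraries, so that all SSC libraries were lower. The log2 fold change of Hes1 (SSC over BCSP) was -0.49 ± 0.15, with an unadjusted p of 0.00487 and an edgeR adjusted p of 0.964, over a background in which 0.00451% of tested genes passed and 1.05% were lower in SSC without overlap. Hes1 was the 1 member of 10 with an unadjusted p under 0.05, against 3.71% of tested genes. It was negative in all 15 alternative fits, from -0.58 to -0.42, and passed in none of them (lowest adjusted p 0.134). The other target, Hey1, had the opposite sign at 0.46 ± 0.24, with 4.41 to 6.31 CPM in SSC and 3.03 to 5.47 CPM in BCSP, which overlapped. The ratio of Hes1 to Hey1 per kb was 21.3 to 30.7 in SSC and 36.1 to 67.1 in BCSP. This ratio was formed after the values were seen and is a description only. The receptor, ligand and Rbpj genes overlapped between the cell types, with log2 fold changes from -0.32 ± 0.40 for Jag2 to 0.46 ± 0.34 for Dll1.

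**Figure D4:**
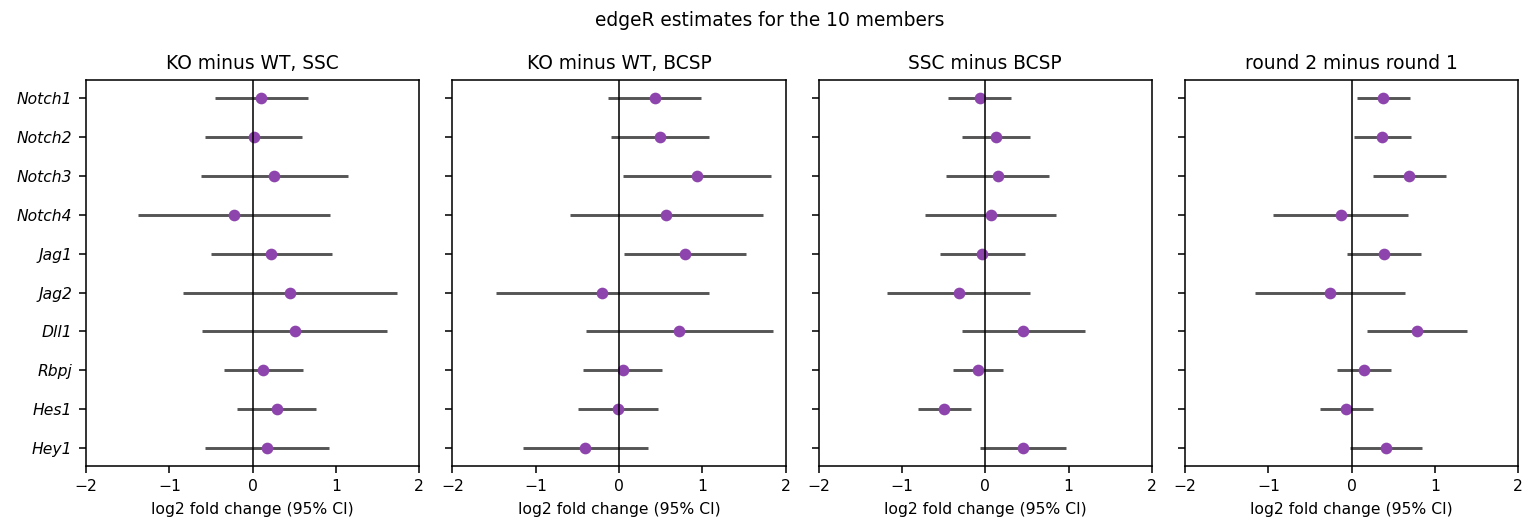
Log2 fold change with its 95% interval for each member, for KO over WT in SSC and in BCSP, for SSC over BCSP, and for round 2 over round 1. Hes1 is the member whose interval lies below 0 between cell types, and the intervals of Notch1, Notch2, Notch3 and Dll1 lie above 0 between rounds.

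More members had an unadjusted p under 0.05 between rounds than between genotypes, but the comparisons differ in size and background. Genotype in BCSP, with 2 libraries against 2, had 2 of 10 members, against 6.19% of tested genes. Genotype over both cell types, with 4 against 4 as for rounds, had 0 members, where 1753 of 22153 tested genes were under 0.05. Notch1, Notch2, Notch3 and Dll1 had an unadjusted p under 0.05 for round 2 over round 1, 4 of 10 members against 11.4% of tested genes. None passed after adjustment, while 1.76% of tested genes did. Notch3 was at 0.69 ± 0.20 (edgeR adjusted p = 0.128) and Dll1 at 0.79 ± 0.28 (adjusted p = 0.249), each higher in round 2 in all 4 groups. Notch1 was at 0.38 ± 0.15 (adjusted p = 0.313) and also higher in all 4 groups. Notch2, at 0.37 ± 0.16 (adjusted p = 0.368), and Jag1, at 0.39 ± 0.21 (adjusted p = 0.516), were higher in round 2 in 3 groups and lower in WT BCSP. Hes1 was the reverse, lower in round 2 in 3 groups and higher in WT BCSP, at -0.06 ± 0.15 overall.

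The sign of Notch2, Jag1 and Rbpj thus differed between WT BCSP and the other 3 groups. When either of its libraries was left out, so that the comparison rested on the other 3 groups, Notch1, Notch2, Notch3, Jag1 and Dll1 all passed between rounds. Without the round 1 library their log2 fold changes were 0.38, 0.52, 0.76, 0.58 and 0.91, with edgeR adjusted p of 0.0057, 2.71e-05, 0.00115, 0.00595 and 0.0141. The background moved too: 4063 genes passed without WT BCSP round 1 and 3900 without WT BCSP round 2, against 390 with all libraries. Without both round 2 BCSP libraries, Notch2 (log2 fold change 0.50) and Notch3 (0.80) passed. Those values rest on the SSC groups alone, the only ones then left with both rounds. More of all tested genes passed there, too, than with all libraries. Of the 5218 genes higher in round 2 in the other 3 groups, 46.6% were also higher in WT BCSP. All 8 immediate-early genes (Fos, Jun and relatives) had a log2 fold change above 0 for round 2 over round 1, with a median of 0.47, and none passed. They summed to 25560 to 30216 CPM in round 2 and 19107 to 20536 CPM in round 1, and their part in the round differences was not tested. Leukocyte markers (8 genes) summed to 3.65 to 4.87 CPM in round 2 and 11.4 to 153 CPM in round 1, where WT SSC alone gave 153 and the other groups 11.4 to 33.8 CPM. All 8 and all 6 erythroid markers were below 0 between rounds, with 3 and 2 of them passing. Between KO and WT in SSC, too, all 8 leukocyte and all 6 erythroid markers were below 0, with medians of -2.65 and -2.54, and none passed. Their part in the members' values was not tested.

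**Figure D5:**
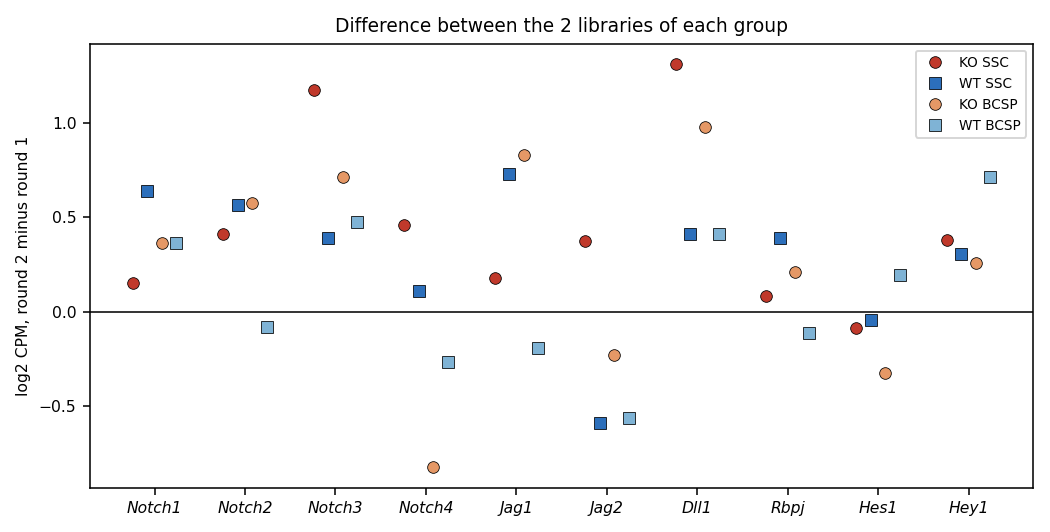
Difference in log2 CPM between the round 2 and the round 1 library of each group, for each member. Notch1, Notch3, Dll1 and Hey1 are above 0 in all 4 groups, and WT BCSP departs from the other groups for Notch2, Jag1 and Rbpj, which are below 0 there.

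The other genes of the pathway were read from 7 lists with 47 genes, 44 of them tested. None passed between genotypes in either cell type or between cell types, where 0.00451% of all tested genes did in each, and 1 passed between rounds, where 1.76% did. In BCSP 25 of the 44 had a log2 fold change above 0 between KO and WT, against 50.5% of all tested genes, and in SSC 27, against 51.3%. Between SSC and BCSP 18 of the 44 were above 0, against 51.8% of all tested genes, and between rounds 24, against 50.1%. Neurl1b, a ubiquitin ligase gene for ligand endocytosis, had 7.01, 8.90, 7.39 and 8.47 CPM in round 2 (KO SSC, WT SSC, KO BCSP and WT BCSP) against 16.2, 12.7, 17.1 and 11.7 CPM in round 1. It fell in round 2 by 0.85 on the log2 scale (SE 0.19, edgeR adjusted p = 0.0372), lower in all 4 groups. The call was lost when any SSC or KO BCSP library was left out, with log2 fold changes of -0.96 to -0.73 and adjusted p of 0.118 to 0.316. Without the round 1 or the round 2 library of WT BCSP the adjusted p was 1.8e-08 and 7.68e-08. Mib1 and Mib2, the other leading genes of that list, averaged 56.4 and 30.6 CPM.

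Dlk1, a membrane protein gene related to the Delta ligands but without their receptor-binding DSL domain, had the highest level per length of all lists, at a mean of 502 CPM per kb (1785 to 4807 CPM). Its log2 fold change between SSC and BCSP was -0.54 ± 0.24 (unadjusted p = 0.0393), and in WT BCSP round 2 it reached 4807 CPM against 1785 to 3308 CPM elsewhere. Without that library the value was -0.26, and without both round 2 BCSP libraries -0.20. Its relative Dlk2 was at -1.08 ± 0.28 for round 2 over round 1 (edgeR adjusted p = 0.0726). Dll4, the endothelial Delta ligand gene, had 0.253 and 0.120 CPM in KO SSC against 0.084 and 0.039 CPM in WT SSC, and 0.343 and 0.328 CPM in KO BCSP against 0.131 and 0.070 CPM in WT BCSP. The genotypes did not overlap in either cell type, at log2 fold changes of 1.59 in SSC (unadjusted p = 0.234) and 1.73 in BCSP (unadjusted p = 0.193) that did not pass in edgeR, beside the endothelial markers given above. Only Dlk1 among the 4 ligand-like genes of that list had an unadjusted p under 0.05 between the cell types.

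The cleavage machinery was present throughout. Furin, the gene for the protease that makes the first receptor cut in the Golgi, averaged 217 CPM, and the gamma-secretase subunit genes Ncstn and Aph1a averaged 48.4 and 41.0 CPM. Of this list of 10, 5 were above 0 and 5 below between KO and WT in BCSP. Psenen, another gamma-secretase subunit gene, had 19.8 and 15.1 CPM in KO BCSP against 22.6 and 38.9 CPM in WT BCSP, a log2 fold change of -0.82 ± 0.27 (unadjusted p = 0.0103, adjusted p = 0.686), the lowest p of the pathway genes in that comparison. The highest value of Psenen was in WT BCSP round 2, without which its log2 fold change was -0.37. It was -0.19 without both round 2 BCSP libraries and -0.41 with the exon-length offset. Among the glycosyltransferase genes, Pofut1, Poglut1 and Rfng averaged 61.9, 20.0 and 8.12 CPM, and all 4 tested members were below 0 in BCSP, none of them passing.

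Of the nuclear cofactor genes, the corepressor gene Spen and the coactivator gene Maml1 averaged 59.5 and 35.7 CPM. Of the 8, 7 were above 0 between KO and WT in BCSP, with a median of 0.34, and none passed. Over the alternative fits the BCSP value ran from 0.18 to 0.75 for Spen, 0.13 to 0.48 for Maml1 and 0.16 to 0.99 for Maml3. The BCSP counts of this and the other lists come from the fit without the exon-length offset, and the part of transcript length in them was not tested. Maml3 had the next lowest p after Hes7 of the pathway genes between genotypes in SSC, at 0.53 ± 0.37 (unadjusted p = 0.172). Fhl1, whose KyoT2 form binds RBPJ, was lower in SSC than in BCSP at -0.44 ± 0.14 (unadjusted p = 0.00833, adjusted p = 1), the lowest p of the pathway genes between cell types. Of the genes for turnover and inhibition, Dtx3, Itch and Numbl averaged 70.1, 63.1 and 51.5 CPM, and 7 of the 8 were above 0 in BCSP, none passing.

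Among the other targets, Heyl, Hes6 and Hey2 averaged 7.54, 5.47 and 0.245 CPM, and 6 of 8 listed genes were tested. Heyl, a Hey relative known from vascular smooth muscle, had 11.1 and 8.29 CPM in KO BCSP against 6.51 and 5.26 CPM in WT BCSP, and 7.44 and 7.47 CPM in KO SSC against 7.28 and 6.98 CPM in WT SSC. The BCSP libraries did not overlap, at a log2 fold change of 0.72 ± 0.28 (unadjusted p = 0.0232, edgeR adjusted p = 0.686), and the SSC value was 0.07. Without both round 2 libraries the BCSP value of Heyl was 0.77. Hes7 was counted almost only in KO round 2 libraries, at 0.624 CPM in SSC and 0.394 CPM in BCSP, against at most 0.0903 CPM in the other 6. Its unadjusted p between KO and WT was 0.0184 in SSC (edgeR adjusted p = 1) and 0.0309 over both cell types (edgeR adjusted p = 0.614). The other low p of that joint comparison was that of Psenen, at -0.54 ± 0.19 (unadjusted p = 0.0156, edgeR adjusted p = 0.614). In the interaction Heyl had the lowest p of the pathway genes, at -0.65 ± 0.39 (unadjusted p = 0.121, edgeR adjusted p = 1).

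The deposited counts do not state the strand of counting. Exons of antisense transcripts overlap 7.5% of the exon bases of Notch1 (0610009E02Rik), 6.03% of those of Notch3 (Gm17276) and 20.5% of those of Dll1 (A930024N18Rik). The first had 0.378 to 1.41 CPM and Gm17276 0 to 0.722 CPM, against 26.9 to 48.9 CPM for Notch1 and 3.03 to 8.68 CPM for Notch3. Gm42820 overlaps 5.02% of Notch2 on the same strand and had at most 0.271 CPM. The level of A930024N18Rik was not analysed here, and its part in the Dll1 counts was not tested.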

How the data were processed

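Bulk RNA of sorted SSC and BCSP was sequenced from Tet1 KO and WT femurs, 2 libraries a group. The authors deposited a table of raw counts per gene. The submitters' processing notes list mm10, STAR, featureCounts and DESeq2, and versions are not given in the sources used here. The name of the table mentions htseq, so which program counted is not settled. Of 55471 entries, 55230 matched GENCODE M21, which gave positions and exon lengths.

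The deposited counts were tested with edgeR 4.0.16 in R 4.3.3 (limma 3.58.1 and data.table, version 1.17.8), with DESeq2 1.42.0 as an alternative. TMM factors were 0.854 to 1.06, and filterByExpr (minimum count 10, minimum total 15) left 22153 genes. Robust quasi-likelihood fits on all 8 libraries used group means (4 residual degrees of freedom) for genotype within a cell type and the interaction, cell type plus genotype (5) for the joint comparisons, and groups plus round (3) for rounds. The joint fits treat SSC and BCSP libraries as independent, which the labels do not state. P-values were adjusted by Benjamini-Hochberg over all tested genes at 0.05. Not overlapping means that every library of a group lay above or below every library of the other. The scripts were tested on simulated data with a narrower spread between libraries and larger changes than those of the members. That test does not show how well changes are found at the spread of these data. Their biological coefficient of variation (relative spread between libraries) was 0.525 in the group fit. Libraries within a group differed by 134 to 325 times the sampling noise (chi-square per degree of freedom), so none is the same library sequenced again. A further preparation from the same RNA or cells cannot be told apart from a separate sample. Depth was 104782544 to 168004119 counts.

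The members, pathway lists and marker lists were chosen with earlier results of these data known. All 10 members are named. Of the other pathway genes, the text names the 3 with the highest mean CPM in each list, those that passed, and the 2 with the lowest p in each comparison. A gene that this rule also names is not reported here. The alternatives were other size factors, no filter, DESeq2, each library left out, and the round as a block. Those without both round 2 BCSP libraries and with an exon-length offset (a lowess of span 0.3) were added after seeing the data.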

Additional observations from a re-analysis of the deposited data

Results flagged for a closer look

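With 35 genes in 6 sets of 4 libraries each, 210 sets were looked at, and 8 held a library far from the other 3 by Dixon's ratio of gap to range. Chance alone sets apart about 1 in 20 such groups. Notch2 had 101 CPM in WT SSC round 2 against 64.1 to 68.6 CPM in the other WT libraries. WT BCSP round 2 gave 5 of the 8. There Furin had 281 CPM against 177 to 189 CPM in the other BCSP libraries, Ncstn 53.4 CPM against 48.1 to 48.6 CPM in the other WT libraries, and Psenen 38.9 CPM against 22.6 to 24.4 CPM in the other WT libraries. Spen had 38.7 CPM there against 73.0 to 77.6 CPM in the other round 2 libraries, and Mib1 28.6 CPM against 54.3 to 59.4 CPM in the other WT libraries. Hes7 had 0.624 CPM in KO SSC round 2 against 0 to 0.0903 CPM in the other SSC libraries, and 0.394 CPM in KO BCSP round 2 against 0.0239 to 0.0628 CPM in the other BCSP libraries.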

How the results depend on the processing

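Of 880 member values recomputed under alternatives, 62 changed sign, none of them a call, and 12 became calls, all between rounds (given above with the libraries left out). Genes called between KO and WT in SSC numbered 1, and 4 without the filter, 9 with DESeq2, 2 with the replicate block, 3 with the exon-length offset and the replicate block, and 0 to 1 with each library left out. In BCSP they numbered 1, and 38, 20, 3 and 8 under the same settings, 0 without both round 2 BCSP libraries, and 1 to 1 with each library left out. The interaction had 0, and 2 with the replicate block, 1 with offset and block, and 0 to 0 with each library left out. Over both cell types there were 3, and 234 without the filter, 103 with DESeq2, 28 with the replicate block, 1 without both round 2 BCSP libraries, 1 with the offset, 102 with offset and block, and 1 to 3 with each library left out. Between cell types there was 1, and 66, 39, 2 and 44 without the filter, with DESeq2, with the block and with offset and block, 10 without both round 2 BCSP libraries, and 1 to 1 with each library left out. Between rounds there were 390, and 861 without the filter, 937 with DESeq2, 714 with the offset, 1954 without both round 2 BCSP libraries, and 118 to 4063 with each library left out. The cause of these shifts was not tested. Deviations of same-numbered libraries correlated at 0.162 to 0.645 in 5 of the 6 pairs of groups and at 0.059 between KO and WT BCSP. Among KO SSC, WT SSC and KO BCSP they were 0.559 to 0.645, and with WT BCSP 0.059 to 0.272. As the value between KO and WT BCSP was near 0 and the labels do not say what a round is, the rounds were not taken to pair the libraries. The replicate block called no member, but the SE of some was smaller in it. Notch3 in BCSP was at 0.92 ± 0.29 (edgeR unadjusted p = 0.00695, adjusted p = 0.501), in place of an SE of 0.41. Hey1 between cell types was at 0.47 ± 0.20 (edgeR unadjusted p = 0.0343, adjusted p = 0.921), in place of 0.24. For Rbpj in BCSP the SE was 0.21 in place of 0.22. A lone library left in a group was assumed to vary like the other groups. With 2 libraries a group, Notch4 and Jag2 lay near 1 CPM, and Dll1 was low as well, at 1.14 to 3.99 CPM. Intervals between genotypes within a cell type were widest for Notch4, Jag2 and Dll1.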
